A study of Homo sapiens with 6 samples.

Results

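The transcripts of 10 subunits of the vacuolar-type proton ATPase (V-ATPase) were followed in RNA recovered with IGF2BP2 and in input RNA. They are the rows of the deposited gene tables with the symbols *ATP6V0B*, *ATP6V0C*, *ATP6V1A*, *ATP6V1B2*, *ATP6V1C1*, *ATP6V1D*, *ATP6V1E1*, *ATP6V1F*, *ATP6V1G1* and *ATP6V1H*, 10 of 20020 genes in all. The rule takes them by symbol and uses no measured value, but the set was picked with earlier results of these data known. Each of the 10 passed the filter on low counts, *ATP6V0C* only through its RIP libraries and 1 input. The data are RNA immunoprecipitation sequencing (RIP-seq) of the 786-O line, established from a human clear cell renal carcinoma and lacking functional VHL. One group is RNA pulled down with IGF2BP2, which binds mRNA in the cytoplasm and has been named among the readers of m6A, a methyl mark on adenosine, in 3 libraries. The other is input RNA in 3 libraries. All 6 came from the same line in RPMI1640 medium with fetal bovine serum, and the labels name no treatment or genotype that separates them.

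The V-ATPase is a rotary pump that uses ATP to move protons into lysosomes, endosomes, the Golgi apparatus and secretory vesicles, and across the surface of some kidney and bone cells. Its cytosolic V1 sector hydrolyses ATP in a head of alternating A and B subunits around a rotor of D and F, held by peripheral stalks of E and G and a collar that includes C and H. Its membrane V0 sector carries protons through a ring built of proteolipid subunits, c (encoded by *ATP6V0C*) and c'' (encoded by *ATP6V0B*). In the kidney the pump is best known from the acid-secreting intercalated cells of the collecting duct, which use particular isoforms of B and a, while the proximal tubule uses it in endosomes and at the brush border.

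The libraries held 37872917, 44045835 and 33872621 counted reads in RIP and 26345064, 27226405 and 25773819 in input. The 10 transcripts together took 0.0408%, 0.0414% and 0.0404% of the reads in RIP, against 0.0574%, 0.0589% and 0.0578% in input. The 786-O label was checked on markers of renal tubule and clear cell carcinoma, of which the kidney transcription factor *PAX8* averaged 691 ± 26.4 CPM in RIP and 416.5 ± 8.16 CPM in input (SD, n = 3 each). CPM here are read counts scaled to library size and by TMM. Of the same list, *VIM* averaged 3385 CPM in RIP and 4077 CPM in input, *CA12* 668.6 and 130.5 CPM, and *NNMT* 62.3 and 320.9 CPM. Of the receptors of the proximal tubule, *LRP2* had 0.830, 0 and 0 CPM in RIP and 0.845, 3.76 and 0.642 CPM in input, and *CUBN* had 2.17, 1.51 and 1.28 CPM in RIP and 1.55, 4.23 and 1.28 CPM in input. Input library 2 stood above the other inputs for both. Summed markers of immune and endothelial cells reached at most 0.715 and 2.95 CPM in a RIP library and 1.13 and 4.26 CPM in an input library. Those of fibroblasts summed to 8.20 to 11.4 CPM in RIP and 8.09 to 13.9 CPM in input. Those of intercalated cells summed to 4.20 to 4.93 CPM in RIP and 2.69 to 4.37 CPM in input. Most of that sum was 1 gene, the V-ATPase subunit *ATP6V0A4*, with means of 4.37 CPM in RIP and 3.03 CPM in input. Osteoclast markers summed to 3.17 to 3.53 CPM in RIP and 1.43 to 2.22 CPM in input. Most of this was *CTSK*, with means of 2.90 CPM in RIP and 1.29 CPM in input. A control pull-down with an unrelated antibody was not analysed here, so every difference below is IGF2BP2 RIP over input. The labels do not say whether replicates came from separate cultures, and p-values then cover only the scatter of these libraries, which could be purely technical.

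The V-ATPase subunits did not move as a block. In edgeR's quasi-likelihood test, with Benjamini-Hochberg adjusted p under 0.05 over all 12856 genes tested, 3 subunits rose in RIP (*ATP6V1A*, *ATP6V1C1* and *ATP6V0C*), 6 fell (*ATP6V1E1*, *ATP6V0B*, *ATP6V1B2*, *ATP6V1F*, *ATP6V1G1* and *ATP6V1H*) and *ATP6V1D* did not pass. Of all genes tested, 82.7% were called, 40.7% as higher and 42% as lower. Neither being called nor a split in direction is therefore a mark of these subunits. The median log2 fold change, RIP over input, was -0.83 over the 10 subunits and -0.02 over all genes tested, whose quartiles were -0.79 and 0.68. *ATP6V0C* had few reads and was tested through the group where it is high. Without it, 2 subunits rose and 6 fell, with a median of -0.97. The 3 RIP libraries did not overlap the 3 inputs for 8 of the 10 subunits, the exceptions being *ATP6V1D* and *ATP6V0C*, and the same held for 83.1% of all genes tested. To rise or fall means here a higher or lower level in RIP than in input of the same line, not a change of expression. For the levels themselves, bulk RNA cannot tell a transcript present in fewer cells from one less abundant per cell.

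**Figure D1:**
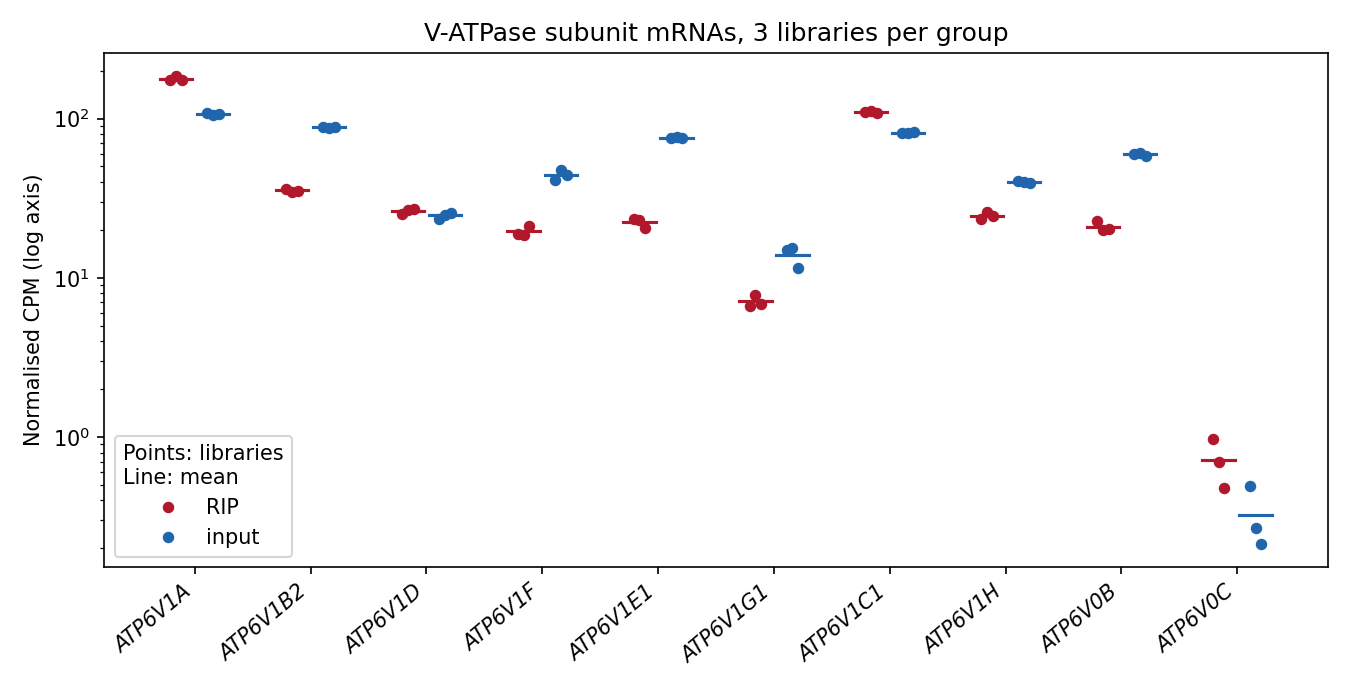
Normalised CPM (log axis) of the 10 V-ATPase subunit mRNAs, with a point for each library, a line at the mean of 3, RIP in red at the left of each pair and input in blue at the right. *ATP6V1A* and *ATP6V1C1* lie higher in RIP, 6 subunits lie lower, *ATP6V1D* overlaps between groups and *ATP6V0C* is below 1 CPM in every library.

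The A and B subunits, which form the catalytic head together, went in opposite directions. *ATP6V1A* (chromosome 3, 113747035 to 113812056 on GRCh38) encodes subunit A, which holds the catalytic ATP sites. It had 174.5, 183.9 and 174.2 CPM in RIP libraries 1, 2 and 3, against 107.6, 105.8 and 106.0 CPM in the inputs. Every RIP library was above every input, and the transcript rose 1.67-fold (log2 fold change 0.74, SE 0.027, edgeR adjusted p = 1.36e-14). *ATP6V1B2* (chromosome 8, 20197381 to 20221696) encodes the widely expressed isoform of subunit B, which shares the nucleotide sites with A. It had 36.13, 34.7 and 35.17 CPM in RIP, against 88.62, 87.08 and 88.5 CPM in input. All RIP libraries were below all inputs, and it was 2.49-fold lower (log2 fold change -1.32, SE 0.019, edgeR adjusted p = 1.903e-18).

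The balance of these 2 transcripts differed between RIP and input. In FPKM, the deposited values scaled by gene length and library total, the ratio of *ATP6V1A* to *ATP6V1B2* was 2.73, 3.0 and 2.80 in RIP, against 0.687, 0.6875 and 0.6775 in input. Per length, A was the more abundant mRNA in each RIP library and B in each input. The assembled head holds A and B proteins in equal number, but protein was not measured here, and mRNA ratios need not match it. The mean ratio was 4.16 times as high in RIP. The ratios of subunit pairs were formed after values had been seen and are given without a test.

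In the central rotor 1 subunit was called and its partner was not. *ATP6V1F* (chromosome 7, 128862856 to 128865847) encodes the small F subunit of the rotor. It had 18.97, 18.57 and 21.17 CPM in RIP, against 41.04, 47.18 and 43.96 CPM in input. The groups did not overlap, and it was 2.26-fold lower (log2 fold change -1.17, SE 0.082, edgeR adjusted p = 2.2e-14). This direction ended in the fit corrected for gene length, where the log2 fold change was 0.31 (edgeR adjusted p = 0.000176).

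*ATP6V1D* (chromosome 14, 67337872 to 67359804) encodes the D subunit, the shaft of the rotor. It had 25.32, 26.83 and 26.91 CPM in RIP, against 23.49, 24.88 and 25.53 CPM in input. The groups overlapped, and the log2 fold change of 0.10 (SE 0.045) did not pass (edgeR adjusted p = 0.166). With library size alone as the scale it was called lower at -0.14 (adjusted p = 0.0452), and with the length trend removed it was called higher at 0.98 (adjusted p = 1.109e-12). In the current RefSeq table its whole span of 21933 bases lies within that of *GPHN*, which encodes the synaptic scaffold gephyrin and rose 1.71-fold. Reads counted without strand could belong to either gene where exons of both overlap. Only the spans were compared, so whether exons overlap is not known here, and the share of such reads was not tested.

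The FPKM ratio of *ATP6V1D* to *ATP6V1F* was 0.636, 0.689 and 0.606 in RIP, against 0.273, 0.251 and 0.277 in input. F mRNA exceeded D mRNA per length in all 6 libraries, by less in RIP.

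Both subunits of the peripheral stalks fell. *ATP6V1E1* (chromosome 22, 17592136 to 17628822) encodes the common isoform of subunit E. It had 23.46, 23.08 and 20.66 CPM in RIP, against 75.06, 76.67 and 75.48 CPM in input. The groups lay far apart, and its 3.38-fold lower level was the lowest ratio among the 10 subunits (log2 fold change -1.75, SE 0.058, edgeR adjusted p = 1.339e-19).

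*ATP6V1G1* (chromosome 9, 114587769 to 114598879) encodes the common isoform of subunit G, the partner of E in each stalk. It had 6.69, 7.79 and 6.86 CPM in RIP, against 14.86, 15.38 and 11.55 CPM in input. Input library 3 was below the other inputs but above every RIP library, and the transcript was 1.95-fold lower (log2 fold change -0.97, SE 0.146, edgeR adjusted p = 8.934e-09). The RefSeq table lists 7 pseudogenes named after *ATP6V1G1*, 3 named after *ATP6V1E1* and 1 named after *ATP6V1F*, none of them rows of the count table. The sources used here do not say how reads with several alignments were treated, so the levels of these genes are uncertain.

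The collar subunits C and H also parted. *ATP6V1C1* (chromosome 8, 103021083 to 103073051) encodes subunit C, which is released when the pump disassembles into its sectors. It had 110.5, 110.9 and 108.4 CPM in RIP, against 81.54, 80.86 and 82.19 CPM in input. All RIP libraries were above all inputs, and it rose 1.35-fold (log2 fold change 0.43, SE 0.012, edgeR adjusted p = 1.013e-09). It did not pass a test against a 1.5-fold change, where the adjusted p rounded to 1.

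*ATP6V1H* (chromosome 8, 53715543 to 53843245) encodes subunit H, which in yeast restrains ATP hydrolysis by the free V1 sector. It had 23.26, 25.79 and 24.57 CPM in RIP, against 40.26, 40.06 and 39.19 CPM in input. The groups did not overlap, and it was 1.62-fold lower (log2 fold change -0.70, SE 0.045, edgeR adjusted p = 7.192e-11). The FPKM ratio of *ATP6V1C1* to *ATP6V1H* averaged 2.33 ± 0.122 in RIP and 1.06 ± 0.023 in input (SD, n = 3 each).

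Of the membrane sector, *ATP6V0B* (chromosome 1, 43974960 to 43978295) encodes the proteolipid c''. It had 22.66, 20.03 and 20.25 CPM in RIP, against 59.6, 60.41 and 58.37 CPM in input. Every RIP library was below every input, and it was 2.84-fold lower (log2 fold change -1.50, SE 0.058, edgeR adjusted p = 8.955e-18).

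*ATP6V0C* (chromosome 16, 2513726 to 2520218) encodes the proteolipid c, which makes up most of the proton-carrying ring. It had only 34, 28 and 15 reads in RIP, against 14, 8 and 6 reads in input. These are 0.973, 0.695 and 0.481 CPM in RIP and 0.493, 0.269 and 0.214 CPM in input, so that RIP library 3 lay below input library 1. It passed the filter, which needs 0.327 CPM before TMM scaling in 3 libraries, in 3 RIP libraries but only 1 input, so it was tested through the group where it is high. The fit put it 2.21-fold higher (log2 fold change 1.14, SE 0.404, edgeR adjusted p = 0.0118). The call was lost without RIP replicate 1 (adjusted p = 0.08555), without input replicate 2 (0.05345), without input replicate 3 (0.06453) and in the test against a 1.5-fold change (0.06298), and over all alternatives the adjusted p ran from 3.049e-05 to 0.08555. The RefSeq table lists 4 pseudogenes named after this gene, none of them a row of the count table. Whether reads of the c subunit were lost to such copies was not tested.

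The levels per length placed the subunits in different orders in RIP and in input. In RIP the order ran from *ATP6V1A* at 32.4 ± 0.847 FPKM through *ATP6V1F* at 23.6 ± 1.75, *ATP6V1C1* at 17.9 ± 0.195, *ATP6V1E1* at 15.5 ± 1.03, *ATP6V1D* at 15.2 ± 0.477, *ATP6V1B2* at 11.4 ± 0.283, *ATP6V0B* at 9.69 ± 0.707 and *ATP6V1H* at 7.69 ± 0.363 to *ATP6V1G1* at 2.58 ± 0.202 (SD, n = 3). Only *ATP6V1E1* and *ATP6V1D* overlapped as neighbours in that order. In input it ran from *ATP6V1F* at 62.9 ± 4.85 FPKM through *ATP6V1E1* at 61.7 ± 1.12, *ATP6V1B2* at 33.5 ± 0.193, *ATP6V0B* at 32.4 ± 0.664, *ATP6V1A* at 22.9 ± 0.065, *ATP6V1D* at 16.7 ± 0.807, *ATP6V1C1* at 15.7 ± 0.140 and *ATP6V1H* at 14.8 ± 0.203 to *ATP6V1G1* at 5.96 ± 0.890 (SD, n = 3). There only *ATP6V1F* and *ATP6V1E1* overlapped as neighbours. *ATP6V0C* was last in both, at 0.465 ± 0.161 FPKM in RIP and 0.249 ± 0.111 FPKM in input.

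*ATP6V1A* was thus at rank 1 in RIP and rank 5 in input, and *ATP6V1E1* at rank 4 in RIP and rank 2 in input, where it overlapped rank 1. Among the 8 subunits of V1, A took 25.5%, 26.3% and 25.2% of the summed FPKM in RIP, against 10.1%, 9.51% and 9.78% in input. E took 13.0%, 12.5% and 11.3% in RIP, against 26.7%, 26.1% and 26.4% in input. FPKM are scaled by library totals and not by TMM, so *ATP6V1D* averages lower in RIP on this scale and higher on the CPM scale.

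**Figure D2:**
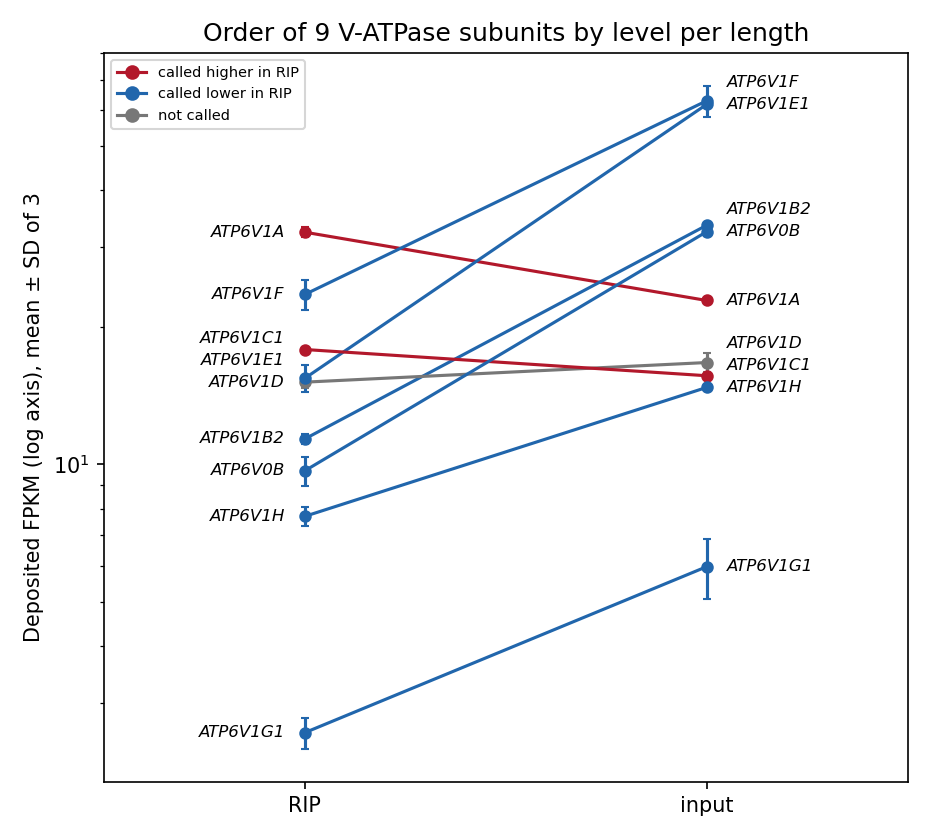
Mean deposited FPKM ± SD of 3 libraries (log axis) for 9 subunits, in RIP at the left and input at the right, coloured by the edgeR call, with *ATP6V0C* left out as it is below 1 FPKM. The line of *ATP6V1A* crosses those of 4 subunits that are above it in input, so that it has rank 1 in RIP at 32.4 FPKM and rank 5 in input at 22.9 FPKM.

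Genes with the most similar pattern were sought for the subunits at both ends of the range of fold changes. Distances were Euclidean, on centred log2 CPM over the 6 libraries. *ATP6V1E1* was closest to *RPL5*, a ribosomal protein gene at 0.053, to *ARPC4*, an actin nucleator subunit at 0.063, and to *UROD*, a heme synthesis enzyme at 0.068. Their log2 fold changes were -1.75, -1.77 and -1.79, beside -1.75 for *ATP6V1E1*. With 6 libraries in 2 groups, such closeness is largely a similar ratio of RIP to input. The closest to *ATP6V0C* were *C4orf33*, *KCTD12* and *RPP14*, at distances of 0.718 to 0.725, so that no gene with at least 5 CPM followed its scattered counts closely.

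The other subunits of the pump were taken from a list of 14 genes, 11 of which had enough reads to be tested. Of these, 3 rose, 7 fell and *ATP6V0D1* was not called, while 40.7% of all genes tested were higher and 42% lower. The 3 include *ATP6V1G2*, which was tested only through RIP, where it is high. The median log2 fold change of the 11 genes was -0.22. Among them are paralogs of the 10 subunits that were called in the other direction, a difference that was not itself tested. *ATP6V1E2*, the second E isoform, known for its expression in testis, had 3.32, 3.45 and 3.24 CPM in RIP, against 2.18, 1.55 and 1.64 CPM in input. It rose 1.87-fold (edgeR adjusted p = 5.795e-05), whereas *ATP6V1E1* fell. The FPKM ratio of *ATP6V1E1* to *ATP6V1E2* was 13.2 ± 0.670 in RIP and 84.9 ± 15.6 in input (SD, n = 3 each), so the E1 isoform dominated in both.

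*ATP6V1G2*, a G isoform of neurons, had 20, 19 and 19 reads in RIP and 6, 5 and 8 in input, and no input reached the filter's minimum. It is counted among the genes that rose but was tested only through RIP, where it is high. *ATP6V1C2*, an isoform of kidney and lung, had 15, 16 and 16 reads in RIP and 16, 37 and 35 in input. It was 2.29-fold lower (edgeR adjusted p = 0.00288), while *ATP6V1C1* rose. *ATP6V1B1*, the B isoform of intercalated cells, never exceeded 3 reads and *ATP6V1G3* never 1, so neither was tested. *ATP6V0D2*, the d isoform of osteoclasts, had 5, 6 and 2 reads in RIP and 1, 0 and 0 in input. The intercalated cell factor *FOXI1* had no read in any library.

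The a subunit anchors V1 to the membrane and directs the pump to its compartment. By length, its isoform a3, encoded by *TCIRG1*, had the highest level, at 4.52 FPKM in RIP and 8.79 FPKM in input, and it was 1.65-fold lower (edgeR adjusted p = 2.275e-09). The a1 isoform *ATP6V0A1* and the a2 isoform *ATP6V0A2* were lower with log2 fold changes of -0.26 and -0.16 (edgeR adjusted p = 0.00123 and 0.0468). The intercalated cell isoform *ATP6V0A4* rose 1.44-fold (edgeR adjusted p = 0.004996), at 4.37 ± 0.367 CPM in RIP and 3.03 ± 0.795 CPM in input (SD, n = 3 each). Among small V0 subunits, *RNASEK*, which encodes subunit f, was 2.25-fold lower and *ATP6V0E1*, which encodes subunit e, 2.05-fold lower. They stood at 56.7 ± 2.44 and 58.5 ± 2.65 CPM in RIP, against 127.6 ± 5.18 and 120.0 ± 3.80 CPM in input (SD, n = 3 each).

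**Figure D3:**
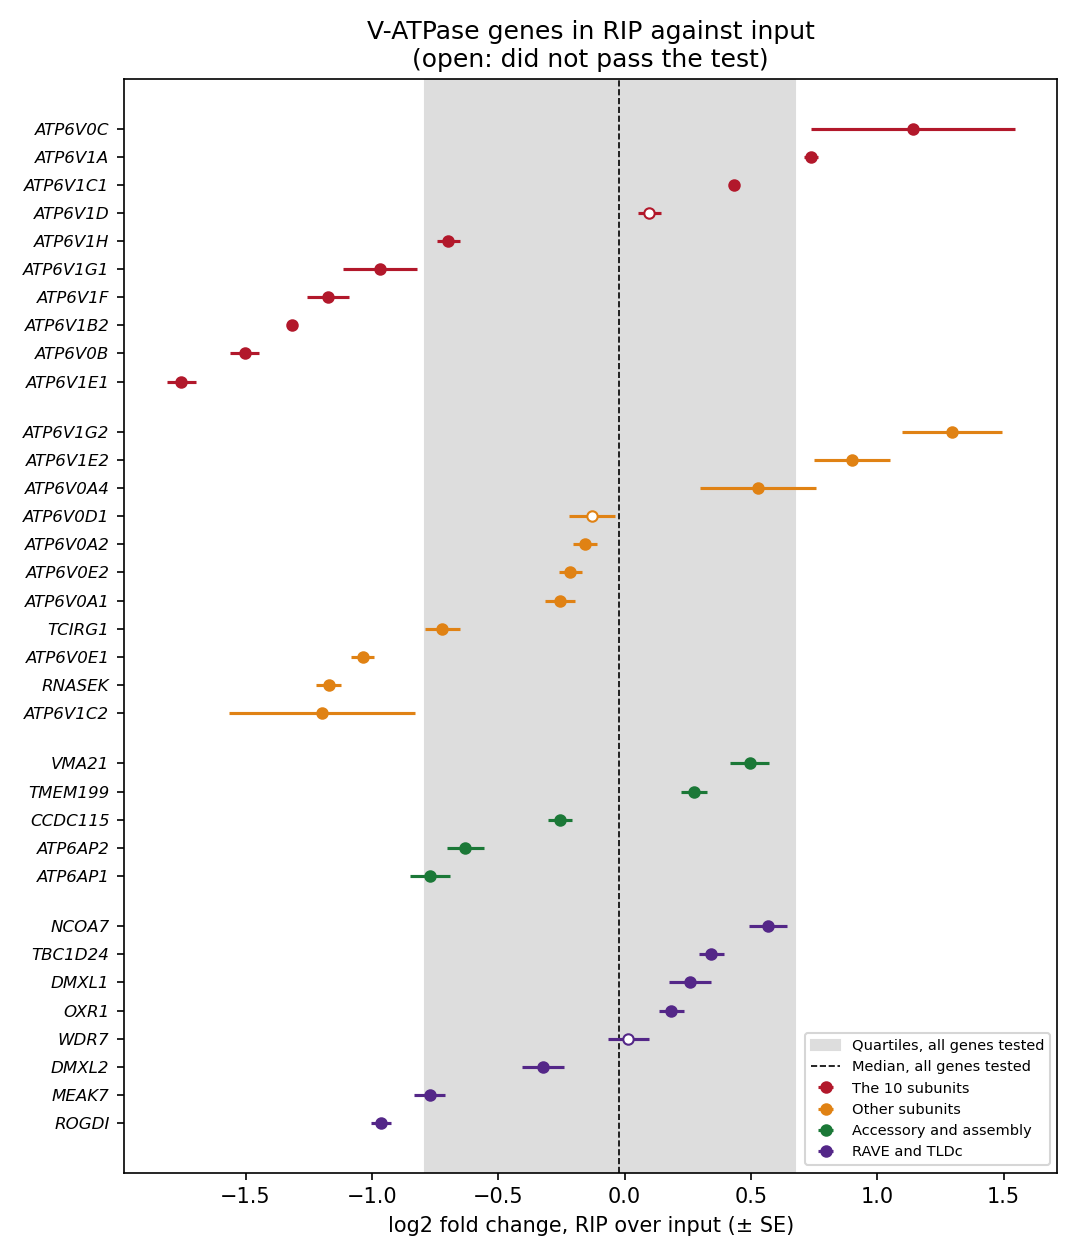
Log2 fold change, RIP over input, with its SE for the 10 subunits and for the tested genes of 3 lists, with filled points for genes that passed the edgeR test. The grey band spans the quartiles of all genes tested (-0.79 to 0.68), and 5 of the 10 subunits with the lowest values, from *ATP6V1E1* to *ATP6V1G1*, lie left of it.

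Accessory and assembly factors were split as well. Of 8 symbols listed 5 are rows of the table, and 2 rose while 3 fell, with a median log2 fold change of -0.26. Over all genes tested, 40.7% were called higher and 42% lower. The accessory subunits *ATP6AP1* and *ATP6AP2* (the prorenin receptor) were 1.70-fold and 1.55-fold lower. *VMA21*, a chaperone that assembles V0 in the endoplasmic reticulum, rose 1.41-fold to 92.95 ± 6.78 CPM in RIP, against 66.1 ± 3.58 CPM in input (SD, n = 3 each). *TMEM199*, another assembly factor, rose 1.21-fold. Of 8 tested genes of the RAVE complex, which reunites V1 and V0, and of the TLDc family, some members of which act on the assembled pump, 4 rose, 3 fell and *WDR7* was not called. *NCOA7* rose 1.48-fold and *TBC1D24* 1.27-fold, while *ROGDI* was 1.95-fold and *MEAK7* 1.71-fold lower.

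The V-ATPase also serves as a platform on which the Ragulator complex and the Rag GTPases recruit the kinase complex mTORC1 to the lysosome. Of 10 such genes tested, 2 rose, 5 fell and 3 were not called, and the median of their log2 fold changes was -0.57. For this list and the next, the shares over all genes tested were 40.7% higher and 42% lower. *LAMTOR4* was 6.35-fold and *LAMTOR5* 2.38-fold lower, both Ragulator subunits, while *RRAGD* rose 1.45-fold and *LAMTOR3* 1.21-fold. The ATP synthase of mitochondria is the related rotary enzyme that runs in the opposite sense. Of its 18 nuclear-encoded genes, 16 fell and 2 rose, with a median of -0.95. The median length of the 18 genes was 1620 nt. Of the tested genes up to 1624 nt, 73.6% were called lower, with a median log2 fold change of -1.23. The lowest of the 18 were *ATP5PD* (625 nt), 9.05-fold, and *ATP5F1E* (5081 nt), 8.80-fold lower. The median log2 fold change of genes of 4694 to 5557 nt was 0.22. *ATP5MK* (924 nt) rose 1.36-fold and *ATP5PF* (1481 nt) 1.18-fold. Whether length accounts for the values of these 18 genes was not tested. The difference between the 2 pumps was not tested.

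Transcription factors of the MiT/TFE family activate V-ATPase and lysosomal genes through an E-box of the CLEAR type. Among the 3 tested, *MITF* rose 2.79-fold to 142.5 ± 1.93 CPM in RIP, against 51.05 ± 0.219 CPM in input. *TFEB* was 2.86-fold lower at 3.63 ± 0.523 CPM in RIP, against 10.3 ± 0.749 CPM in input (SD, n = 3 each), and *TFE3* was not called. The promoters of the subunits were searched for the core TCACGTG on both strands in the 250 bases before the annotated start. RefSeq promoter sequences (GRCh38.p14) were at hand for 6 of the 10 subunits, and 2 of the 6 hold the core, against 5.27% of 15843 protein-coding genes. The core lies in *ATP6V0B* and *ATP6V1G1*, which were both lower in RIP. Of the searched subunits without it, *ATP6V1E1* and *ATP6V1F* were also lower and *ATP6V1D* was not called. *ATP6V0C*, also without it, was called higher but was tested through the group where it is high. A link between the core and the level in RIP was not tested. Each stretch is given 5′ to 3′ on the plus strand with the matches in capitals, at chr1:43974894-43974934 and chr9:114587702-114587725.
ATP6V0B: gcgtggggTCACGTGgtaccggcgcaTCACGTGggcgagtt
ATP6V1G1: ctgtgcggTCACGTGAcaacgggg
The matches in *ATP6V0B* start 58 and 40 bases before the annotated start. That in *ATP6V1G1* starts 59 bases before it and reads the same on both strands, so that the core is met once on each with an overlap. A match is a description of the letters and not a measured binding site.

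Gene length moved with the fold change over the whole table. Lengths, recovered from the counts and FPKM, ran from 762 nt for *ATP6V1F* to 5655 nt for *ATP6V1C1*, with *ATP6V1A* next at 5048 nt. *ATP6V1C1* and *ATP6V1A*, which rose, are the longest of the 10. Of the 1287 shortest genes tested, up to 1624 nt, 12.4% were called higher and 73.6% lower, with a median log2 fold change of -1.23. These shortest genes include *ATP6V1E1*, *ATP6V1F*, *ATP6V1D* and *ATP6V0C*, of which *ATP6V1E1* lay below the median at -1.75 and *ATP6V1F* close to it at -1.17. *ATP6V1D* at 0.10 and *ATP6V0C* at 1.14 lay above it.

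*ATP6V0B* at -1.50 lay below the median of -0.78 for genes of 1625 to 2223 nt, and *ATP6V1G1* at -0.97 below the -0.47 of genes of 2224 to 2757 nt. *ATP6V1B2* and *ATP6V1H*, of nearly equal length at 2856 and 2933 nt, stood at -1.32 and -0.70, against a median of -0.25 for genes of 2758 to 3350 nt. *ATP6V1A* at 0.74 was above the 0.22 of genes of 4694 to 5557 nt, of which 50.5% were called higher, and *ATP6V1C1* at 0.43 was close to the 0.37 of genes of 5558 to 6769 nt, of which 57.6% were called higher. Across genes, which are not independent replicates and share the 6 libraries, Spearman's rho of fold change with log2 length was 0.38 over the 10 subunits, 0.65 over 9 without *ATP6V0C* and 0.44 over all genes tested, with Pearson's r of 0.37, 0.64 and 0.44.

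With the length trend removed, 5 subunits were called higher and 5 lower, with a median log2 fold change of -0.14. Over all genes tested, 40.2% were called higher and 40% lower in that fit. *ATP6V0C*, tested through the group where it is high, is among the 5 called higher. *ATP6V1A* was at 0.54 and *ATP6V1C1* at 0.16 in that fit, and both were still called higher. *ATP6V1B2* was at -1.02, *ATP6V0B* at -0.84, *ATP6V1E1* at -0.70, *ATP6V1G1* at -0.54 and *ATP6V1H* at -0.43, all still called lower. Over every setting tried, *ATP6V1A* ran from 0.48 to 0.76, *ATP6V1B2* from -1.56 to -1.02, *ATP6V0B* from -1.74 to -0.84 and *ATP6V1E1* from -2.0 to -0.70, and *ATP6V0C* had the widest range, from 0.23 to 2.13.

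**Figure D4:**
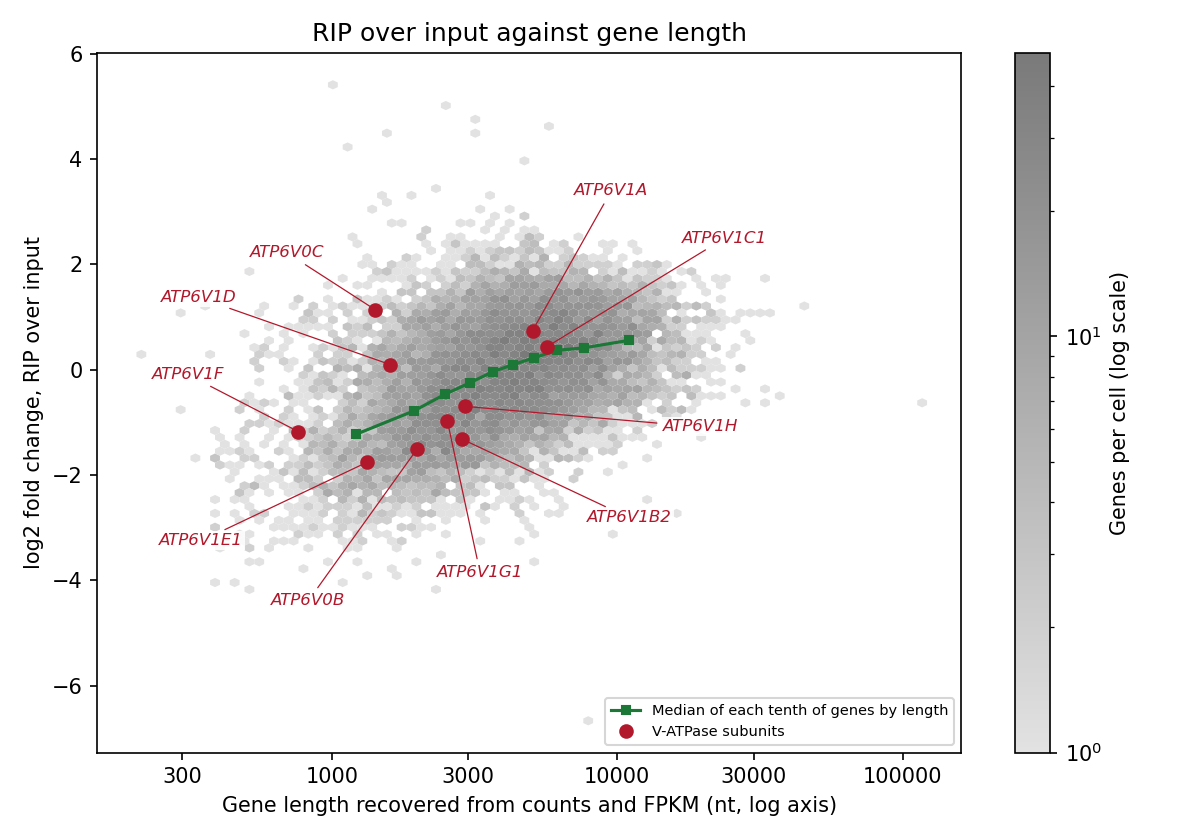
Log2 fold change, RIP over input, against gene length (nt, log axis) for the 12856 genes tested, in grey cells by number of genes, with the medians of 10 equal bins by length in green and the 10 V-ATPase subunits in red. The green medians run from -1.23 in the shortest bin to 0.56 in the longest, and *ATP6V1B2*, *ATP6V0B* and *ATP6V1E1* lie below the line while *ATP6V0C* and *ATP6V1D* lie above it.

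**Figure D5:**
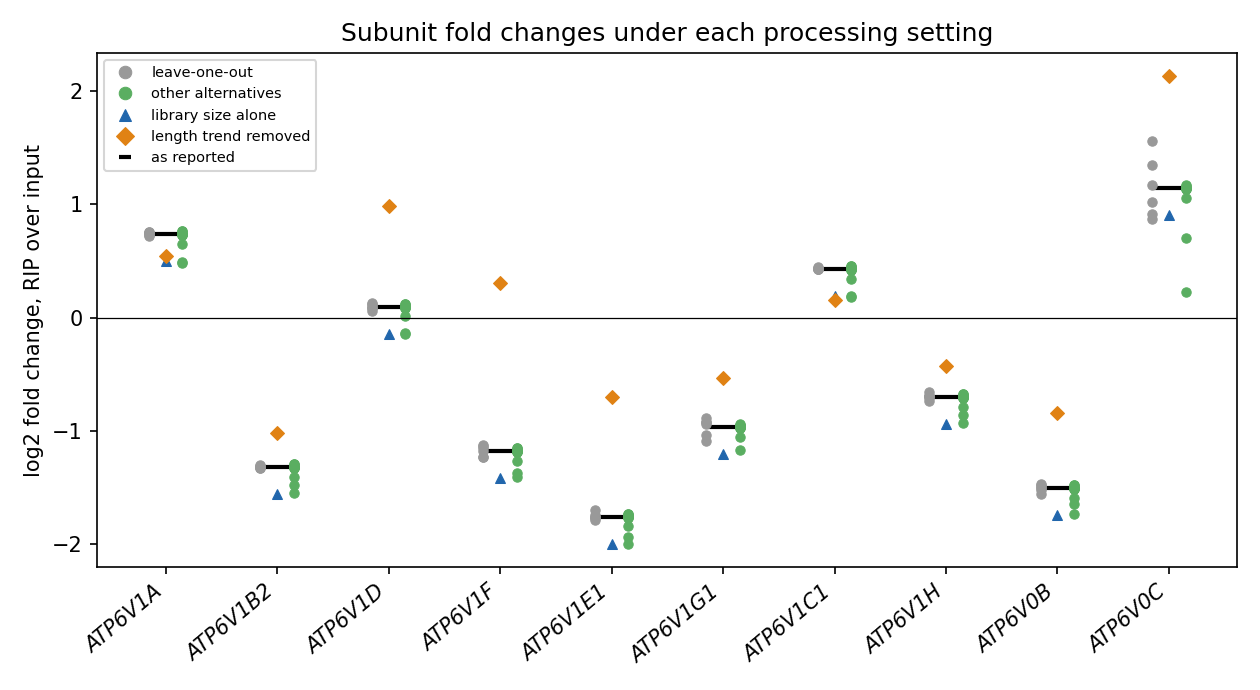
Log2 fold change, RIP over input, of each subunit under the reported setting (black bar), with each library left out (grey), with library size alone as the scale (blue), with the length trend removed (orange) and under the other alternatives (green). *ATP6V1D* falls on both sides of 0 and *ATP6V1F* is above 0 with the length trend removed, while the other 8 subunits keep their sign in every setting drawn.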

How the data were processed

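All 6 libraries were grouped and numbered by their titles. Per the submitters' processing notes, fastp 0.23.2, STAR 2.7.10a, featureCounts and DESeq2 were used with hg38. The sources used here give neither the annotation nor the strand setting nor the handling of multiply aligned reads. The authors deposited raw read counts per gene symbol and FPKM for the same 20020 genes; counts over FPKM and column totals gave the gene lengths.

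The counts were filtered with filterByExpr (12856 genes left), TMM-scaled and fitted in edgeR 4.0.16 (R 4.3.3) by group alone. SEs were taken from log2 CPM of the 3 libraries per group. Alternatives used other scalings, filters, DESeq2 1.42.0, limma 3.58.1 (voom, or log2(FPKM + 1) and log2(FPKM + 0.1)), a 1.5-fold null, a replicate block, loess removal of length and leaving out libraries. Replicates differed beyond sampling noise (chi-square per gene 3.42 to 8.35).

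The rule takes members by symbol alone, but the set of members and the lists were picked with earlier results of these data known. Named genes are the 10 subunits, genes of the list of other subunits, and per further list up to 2 called genes per direction with at least 5 CPM and the largest change, with the 3 nearest profiles of the extreme subunits. *WDR7*, *TFE3*, *FOXI1*, *GPHN* and the marker genes were named outside that rule.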

Additional observations from a re-analysis of the deposited data

How the results depend on the processing

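Of 189 fold changes of single subunits under 19 alternatives, 179 kept both direction and side of the threshold, 5 lost the call, 1 gained it and 4 turned direction. *ATP6V1D* turned to -0.14 with library size alone, to -0.13 with log2(FPKM + 1) and to -0.14 with log2(FPKM + 0.1), and *ATP6V1F* to 0.31 with the length trend removed. The median log2 fold change of the subunits, -0.83 as reported, was -0.92 with upper-quartile scaling, -1.07 with library size alone, -0.98 with a filter of 5 CPM, -0.91 and -1.05 on log2 FPKM with the larger and smaller pseudocount, -0.14 with the length trend removed, and -0.97 without *ATP6V0C*, an alternative added after the data were seen. Library size alone moved the median of all genes to -0.26, with 32% called higher and 50.4% lower. Subunits called higher numbered 3 as reported, 1 in the test against a 1.5-fold change and 5 with the length trend removed. The shares of all genes called higher were 40.7%, 23.1% and 40.2%. *ATP6V0C*, tested through the group where it is high, is among the 3 and the 5. Other V-ATPase genes called (subunits, accessory, RAVE and TLDc) numbered 22 of 24 tested as reported and 9 against a 1.5-fold change. The 22 include *ATP6V1G2*, tested only through RIP. Of all genes, 82.7% were called as reported. Against a 1.5-fold change, 23.1% of all genes were higher and 26.1% lower. Leaving out each library gave 2 to 3 subunits higher, 6 lower in each case, medians of -0.90 to -0.79 and 20 to 23 other genes called. Of all genes, 38.9% to 39.6% were then called higher and 40.2% to 41% lower. With the replicate block there were 3 higher and 6 lower, a median of -0.83 and 21 other genes called. Of all genes, 40.5% were higher and 41.9% lower with that block. Deviations of same-numbered libraries had correlations of 0.036, -0.046 and 0.035, and those of differently numbered libraries ran from -0.081 to 0.049. The numbers were not taken as pairs, but whether same-numbered libraries share a source cannot be told from these values. The filter of 5 CPM in 3 libraries removed *ATP6V0C*, which has no value there. *ATP6V0C*, with 6 to 34 reads a library, has the least precise value of the 10, and the cause of its low counts was not tested.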
